A study of Mus musculus with 6 samples.

Results

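The G-protein gamma subunit genes were followed in beta-cells sorted from mouse islet cell clusters. All genes of the expression table with a symbol made of Gng or Gngt and a number were taken, which gave 6 of its 13535 genes: *Gng12*, *Gng5*, *Gng4*, *Gng10*, *Gng2* and *Gng7*. The mouse annotation (GENCODE M21, build GRCm38) holds 12 such genes. The other 6, *Gng3*, *Gng8*, *Gng11*, *Gng13*, *Gngt1* and *Gngt2*, were not in the table and were not analysed here. *Gng12* was singled out because its level differed between the groups compared below, so its difference is given as a description with no test. The other 5 genes were taken by symbol alone.

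The beta-cells came from wild-type (WT) adult male C57BL/6JRj mice, and both groups were cultured for 5 days as clusters of sorted cells. In pseudo-islets, the beta-cells had been mixed with the other endocrine cells of the islet, alpha-cells and delta-cells. In pseudo-beta, the clusters held beta-cells alone. The labels name no other treatment in either group. At the end of culture the clusters were taken apart, the beta-cells were sorted again by surface markers and their RNA was sequenced, with 1 library of each group in each of 3 independent experiments (35, 36 and 37). The comparison asks which beta-cell genes depend on the neighbouring alpha- and delta-cells. The sort does not remove every other cell, and in such sorted samples a gene's reads per cell and the share of cells that carry it cannot be told apart.

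Heterotrimeric G-proteins carry signals from receptors at the cell surface to enzymes and channels inside the cell. Each has an alpha subunit, which binds GTP, and a beta and a gamma subunit that stay together as one unit and act on their own targets, such as adenylyl cyclases, phospholipase C-beta, potassium and calcium channels and the exocytosis machinery. The gamma subunit is a small protein that ends in a CAAX box, where a lipid is joined to a cysteine and anchors the pair at the membrane. In beta-cells, glucagon, GLP1 and GIP act through receptors coupled to the stimulatory alpha subunit, while adrenaline and somatostatin act through inhibitory ones.

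The end of the coding sequence shows what the 6 genes share beyond their names. Below are the last 10 codons before the stop codon in the GENCODE M21 transcripts, 5′ to 3′, with the 4 codons of the CAAX box in capitals.
Gng12: ttcaaggataagaagaccTGCATCATCTTA
Gng5: ttcagaccccagaaagtcTGCTCCTTTTTG
Gng4: cgggagaagaagttcttcTGCACCATCCTC
Gng10: ttccgggagcccaggtccTGTGCTCTACTT
Gng2: cgggagaagaagttcttcTGCGCCATCCTT
Gng7: ttcaaagacaaaaagcctTGCATAATTCTC
In all 12 genes of the annotation the box opens with a cysteine codon. In the 6 genes of the table it closes with a leucine codon, the kind of box that receives a geranylgeranyl lipid. Of the 6 genes that were not in the table, 3 close with a leucine codon and 3 with a serine codon, the kind that receives a farnesyl lipid. Among the 6 genes of the table, the only ones aligned, the coding sequence of *Gng12* was nearest to *Gng2* (71.3% of aligned bases identical) and *Gng7* (69.5%), both among the lowest in these cells. It shared 67.0% with *Gng4*, 57.3% with *Gng10* and 56.3% with *Gng5*.

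*Gng12*, a widely expressed gamma subunit, had the highest normalized counts of the family, and beta-cells from pseudo-islets had 1.78 times as much of it as beta-cells from pseudo-beta. The gene (ENSMUSG00000036402) lies on the forward strand of chromosome 6 from 66896397 to 67021350 of GRCm38. Its normalized counts, which are the reads assigned to a gene after the authors' scaling between libraries, were 12056, 12238 and 12103 in pseudo-islets of experiments 35, 36 and 37. In pseudo-beta of the same experiments they were 6428, 6870 and 7159. The lowest pseudo-islet library therefore lay far above the highest pseudo-beta library, and the pseudo-islet libraries were nearly equal, with a coefficient of variation of 0.777% against 5.40% in pseudo-beta. The group means were 12132 ± 94.3 (SD, n = 3) and 6819 ± 368 (SD, n = 3). Within the experiments the ratio of pseudo-islets to pseudo-beta was 1.88, 1.78 and 1.69. On the scale of log2(value + 1), the difference was 0.83, with a standard error (SE) of 0.11.

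**Figure D1:**
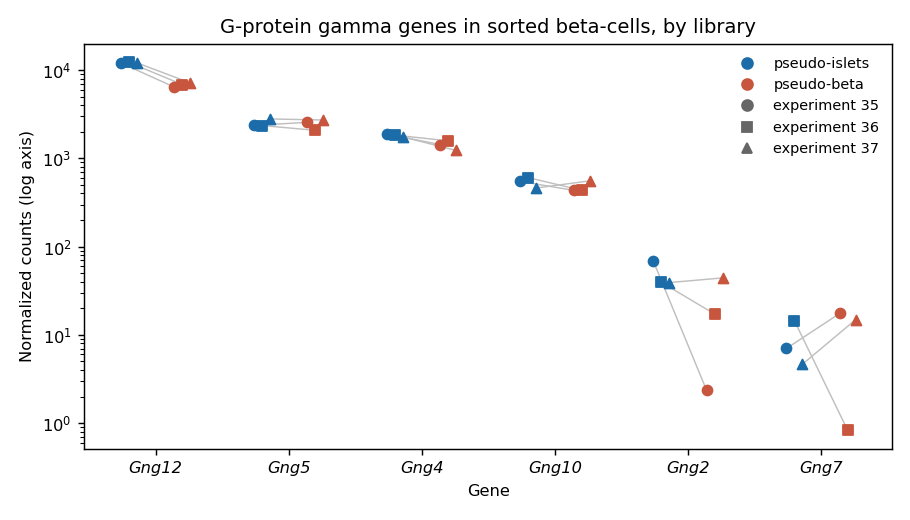
Normalized counts (log axis) of the 6 gamma subunit genes in each library, with pseudo-islets in blue, pseudo-beta in red, 1 marker shape for each experiment and a grey line joining the libraries of an experiment. *Gng12* sits between 12056 and 12238 in pseudo-islets and between 6428 and 7159 in pseudo-beta, and the other gene whose groups do not overlap is *Gng4*.

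Of the other 5 genes, none passed the test between pseudo-islets and pseudo-beta. The test was limma on log2(value + 1), and calls were made below an adjusted p of 0.05 after Benjamini-Hochberg adjustment over all 13535 genes. It called 8 genes in the whole table, 0.0591% of them, so few genes of any kind passed. A second fit with a replicate block, in which each pseudo-islet library is set against the pseudo-beta library of its own experiment, called 73 genes (0.539%) and again none of the 5. At an unadjusted p under 0.05 there was 1 of the 5 without the block and there were 2 with it, beside 5.40% and 11.9% of all genes. The median log2 fold change of the 5 was 0.18, beside 0.01 over all genes.

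*Gng4*, which codes for a gamma subunit best known from brain, was the third most abundant member by normalized counts. It lies on chromosome 13 from 13784059 to 13827896 (forward strand, ENSMUSG00000021303). The 3 pseudo-islet libraries held 1888, 1836 and 1747 normalized counts, and the pseudo-beta libraries held 1431, 1576 and 1229. As for *Gng12*, every pseudo-islet library was above every pseudo-beta library, and the ratios within the experiments were 1.32, 1.16 and 1.42. Groups without overlap are common in this table, at 10.8% of all genes in either direction and 5.63% with pseudo-islets above. The means were 1824 ± 71.4 (SD, n = 3) and 1412 ± 175 (SD, n = 3). The log2 fold change was 0.38 (SE 0.14, 95% interval 0.06 to 0.69), with an adjusted p = 0.872 by limma with Benjamini-Hochberg adjustment, or 0.175 with the replicate block. The interval leaves room for a difference of up to 1.62-fold.

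*Gng5*, a widely expressed gamma subunit, was second in normalized counts and close to equal in the 2 groups. It lies on chromosome 3 from 146499807 to 146505572 (forward strand, ENSMUSG00000068523). Its normalized counts were 2365, 2357 and 2798 in the pseudo-islet libraries, set against 2561, 2079 and 2721 in the pseudo-beta libraries. The groups overlapped, and the highest library of either group came from experiment 37. The log2 fold change was 0.04 (SE 0.15, 95% interval -0.29 to 0.36), with an adjusted p = 0.998 by limma with Benjamini-Hochberg adjustment. The fold that this interval allows runs from 0.816 to 1.29. Its fold change is not compared with that of *Gng12*, which was chosen on this contrast, and the difference between the 2 was not tested.

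*Gng10*, another broadly expressed member, lies on chromosome 4 from 59035088 to 59041903 (forward strand, ENSMUSG00000038607). Beta-cells of pseudo-islets gave 548, 605 and 462 normalized counts, and those of pseudo-beta gave 434, 435 and 556. It was higher in pseudo-islets in experiments 35 and 36 and lower in experiment 37. The log2 fold change was 0.18 (SE 0.19, 95% interval -0.24 to 0.60), with an adjusted p = 0.998 by limma with Benjamini-Hochberg adjustment.

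*Gng2* and *Gng7*, the genes of the table whose coding sequences are nearest to that of *Gng12*, were barely detected. *Gng2* (chromosome 14 from 19872559 to 19977627, reverse strand, ENSMUSG00000043004) was at 68.2, 39.4 and 39.2 normalized counts in the pseudo-islet libraries and at 2.35, 17.2 and 44.2 in the pseudo-beta libraries. Its log2 fold change of 1.78 (SE 0.82) had an adjusted p = 0.926 by limma with Benjamini-Hochberg adjustment, and it was 0.75 without the pseudo-beta library of experiment 35. *Gng7* (chromosome 10 from 80948624 to 81014945, reverse strand, ENSMUSG00000048240) was at 7.02, 14.4 and 4.65 normalized counts in the pseudo-islet libraries and at 17.5, 0.828 and 14.9 in the pseudo-beta libraries. Its direction was not settled, since the pseudo-beta mean was higher (11.1 against 8.68) while the log2 fold change was 0.12 (SE 0.98), with an adjusted p = 0.998 by limma with Benjamini-Hochberg adjustment. Of the 6 genes, 4 had at least 10 normalized counts in every library, all but these 2.

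**Figure D2:**
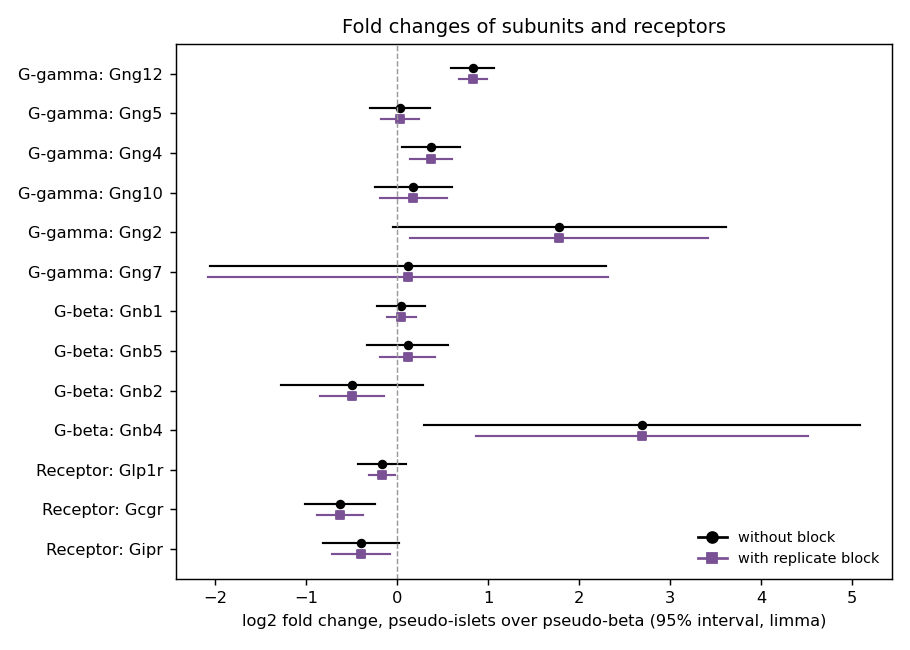
Log2 fold change of pseudo-islets over pseudo-beta with its 95% interval from limma, without (black) and with (purple) the replicate block, for the 6 gamma subunit genes, the G-beta genes of the table and the receptors for GLP1, glucagon and GIP. *Gng12*, shown as a description because it was chosen on this contrast, is at 0.83, *Gng4* is at 0.38, *Gng5* and *Gnb1* lie near 0, and *Gcgr* is at -0.62.

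The make-up of the family differed between the groups along with *Gng12*. In pseudo-islets, *Gng12* held 71.2%, 71.6% and 70.6% of all normalized counts of the 6 genes. The pseudo-beta libraries gave it 59.1%, 62.6% and 61.1%. The means were 71.1% ± 0.53 (SD, n = 3) and 60.9% ± 1.74 (SD, n = 3), a gap of 10.2 percentage points with no overlap. The share of *Gng5* was 14.7% ± 1.40 against 21.9% ± 2.57 (SD, n = 3 each), although its own counts were close to equal. Shares add up to 100%, so a higher share of one gene lowers those of the others. The share of *Gng4* was 10.7% ± 0.49 against 12.7% ± 1.98 (SD, n = 3 each), lower in pseudo-islets although its counts were higher there. *Gng10* held 3.16% and 4.23%, *Gng2* 0.29% and 0.19%, and *Gng7* 0.05% and 0.10%.

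Summed over the 6 genes, the family came to 17059 ± 114 normalized counts in pseudo-islets and 11192 ± 463 in pseudo-beta (SD, n = 3 each). *Gng12* accounted for 90.6% of the gap of 5867 normalized counts and *Gng4* for 7.01%. Without *Gng12*, the family summed to 4877, 4853 and 5050 normalized counts in the pseudo-islet libraries and to 4447, 4108 and 4565 in the pseudo-beta libraries. The sum of the other genes was thus 12.7% higher in pseudo-islets, against 52.4% for the whole family. Per kb of exons these gaps were 11.7% and 42.3%, and with the longest transcript for *Gng12* and the shortest principal transcript for the others they were 6.79% and 24.0%.

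**Figure D3:**
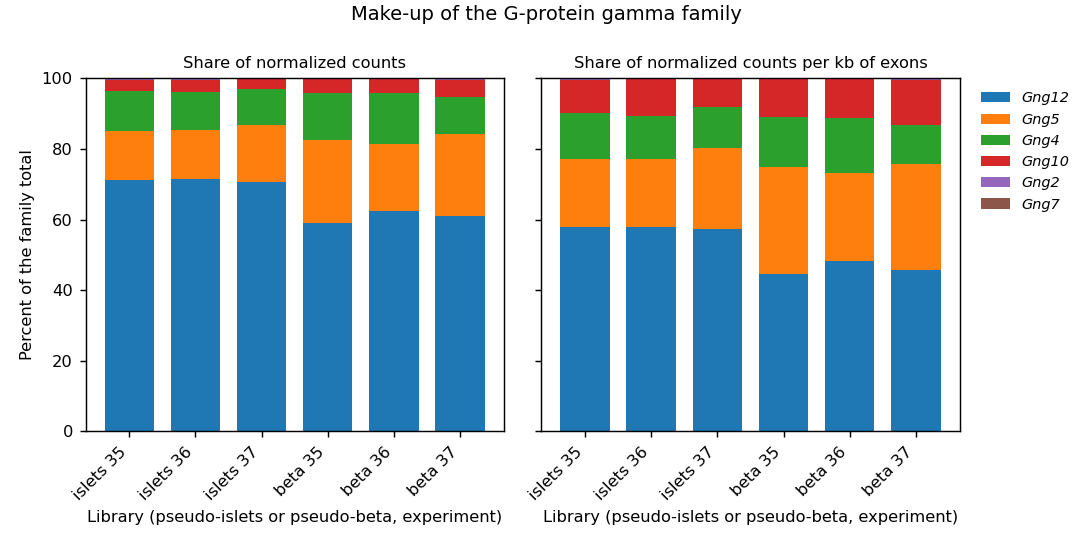
Percent of the family total held by each gamma subunit gene in each library, as bars stacked to 100%, by normalized counts (left) and by normalized counts per kb of exons (right). *Gng12* holds 59.1% to 71.6% of the normalized counts, and 44.6% to 58.0% once exon length is taken into account, with all pseudo-islet libraries above all pseudo-beta libraries in both panels.

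A longer transcript gives more reads, so levels of different genes were compared per kb. Divided by the joined length of its exons (4727 bases), *Gng12* reached 2567 ± 20.0 normalized counts per kb in pseudo-islets and 1443 ± 77.9 in pseudo-beta (SD, n = 3 each). It was followed by *Gng5* (907 and 887), *Gng4* (546 and 423) and *Gng10* (410 and 362), with *Gng2* (11.1 and 4.84) and *Gng7* (2.29 and 2.93) last. Per kb of exons, *Gng12* was 2.53 to 3.04 times *Gng5* in the pseudo-islet libraries and 1.47 to 1.93 times in the pseudo-beta libraries. The gap between the groups in this ratio largely restates the contrast on which *Gng12* was chosen. In the middle of the order per kb of exons, *Gng4* and *Gng10* did not overlap in pseudo-islets but did in pseudo-beta. There *Gng4* ran from 368 to 472 and *Gng10* from 331 to 423 normalized counts per kb. *Gng2* and *Gng7* overlapped in pseudo-beta.

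Which gene leads the family per kb depended on the transcript assumed. The principal *Gng12* transcripts of the annotation run from 680 to 4248 bases and those of *Gng5* from 593 to 2419 bases, and the table does not tell transcripts apart. With the longest transcript of each gene, the share of *Gng12* was 57.9% in pseudo-islets and 46.3% in pseudo-beta. With the shortest principal transcript of each gene it was 76.8% and 66.6%. With the longest transcript for *Gng12* and the shortest for the others it was 34.7% and 24.3%, and *Gng5* then led with 51.2% and 62.1%. These last 2 lengths were added after the values had been seen. On every length tried, *Gng12* held more of the family in the pseudo-islet library than in the pseudo-beta library in 3 of 3 experiments. Dividing by a length leaves each gene's own ratio between the groups as it was. This direction therefore largely restates the contrast on which *Gng12* was chosen and is not separate support.

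**Figure D4:**
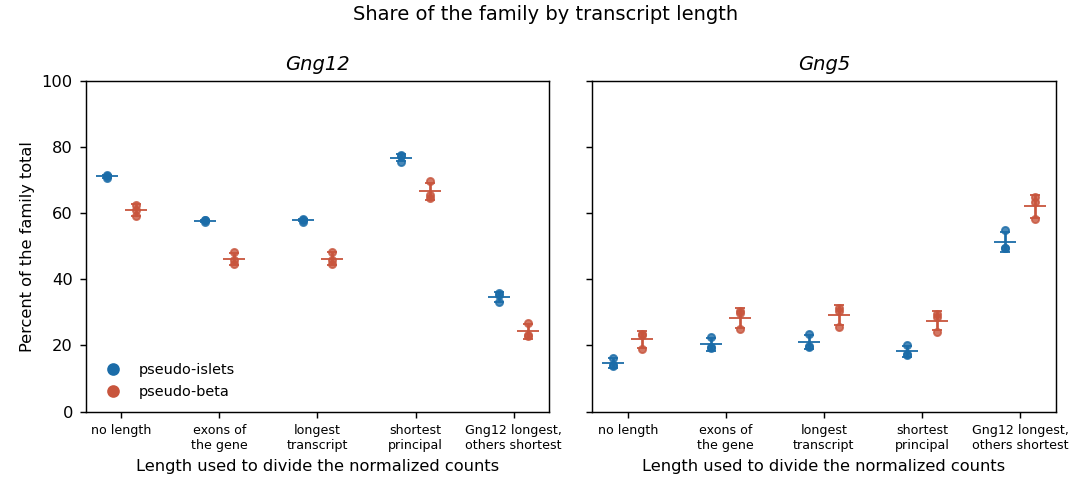
Percent of the family total held by *Gng12* (left) and *Gng5* (right) for each length by which the normalized counts were divided, with points for libraries, horizontal marks for means and bars for the SD (n = 3). *Gng12* ranges from 34.7% to 76.8% in pseudo-islets with the length used, and pseudo-islets stay above pseudo-beta at each of them. The lengths leave each gene's own ratio between the groups unchanged.

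The gamma subunit acts only with a beta subunit, and *Gnb1*, the G-beta gene with the highest values here, was close to equal in the 2 groups. Of the 5 G-beta genes 4 were in the table, all but *Gnb3*, and none was called with or without the block. *Gnb1* was at 6830, 6199 and 7025 normalized counts in the pseudo-islet libraries and at 6179, 6136 and 7082 in the pseudo-beta libraries. Its log2 fold change was 0.05 (SE 0.12, 95% interval -0.22 to 0.31), with an adjusted p = 0.998 by limma with Benjamini-Hochberg adjustment. Per kb of exons, *Gng12* was 1.56 to 1.78 times *Gnb1* in the pseudo-islet libraries and 0.913 to 1.01 times in the pseudo-beta libraries. As *Gnb1* was close to equal, the gap between the groups largely restates the contrast on which *Gng12* was chosen. It is a ratio of RNA, and the subunit proteins were not measured here. This ratio also depended on the length, at 7.18 to 8.22 and 4.21 to 4.66 times with the shortest principal transcripts and 1.15 to 1.32 and 0.674 to 0.746 times with the longest transcript for *Gng12* and the shortest for *Gnb1*. *Gnb5*, the atypical beta subunit that pairs with RGS proteins, had a log2 fold change of 0.12 (SE 0.20). *Gnb2* had one of -0.50 (SE 0.35), which was -0.18 without the pseudo-beta of experiment 37. Within the experiments its ratios were 0.646, 0.722 and 0.762. With the replicate block the SE was 0.16, with an adjusted p = 0.248 by limma with Benjamini-Hochberg adjustment. With the block, the log2 fold change of *Gnb2* was -0.43, -0.51 and -0.55 without experiments 35, 36 and 37. *Gnb4* was low, with 38.2, 36.1 and 80.1 normalized counts in the pseudo-islet libraries and 0, 31.3 and 12.5 in the pseudo-beta libraries. Its groups did not overlap. The log2 fold change of 2.69 (SE 1.08) had an adjusted p = 0.880 by limma with Benjamini-Hochberg adjustment and was 1.23 without the pseudo-beta library of experiment 35, where it was listed at 0.

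Of the alpha subunits, 13 of 16 were in the table and none was called. Their median log2 fold change was -0.09, with 5 above and 8 below 0. *Gna11*, which couples receptors to phospholipase C, had a log2 fold change of -0.09 (SE 0.12), and *Gnas*, the stimulatory alpha subunit that raises cAMP, a log2 value of -0.11 (SE 0.24). *Gnai3*, an inhibitory alpha subunit, gave 4382, 4013 and 2835 normalized counts against 3373, 2801 and 2300, higher in pseudo-islets in 3 of 3 experiments. Its log2 fold change was 0.40 (SE 0.19), with an adjusted p = 0.928 by limma with Benjamini-Hochberg adjustment, or 0.077 with the replicate block.

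All genes listed for the assembly of G-proteins and for CAAX processing were in the table. None of the 12 assembly and chaperone genes, not all of which act on the beta-gamma pair, was called (median log2 fold change 0.11, 9 above and 3 below 0). Among them, the chaperonin subunits *Cct7*, *Cct5* and *Cct8* had log2 fold changes of -0.02, 0.09 and 0.21. None of the 6 genes of CAAX processing was called either (median 0.07). *Pggt1b*, the geranylgeranyl transferase subunit that acts on boxes ending in leucine, had a log2 fold change of 0.09 (SE 0.38). *Zmpste24*, a protease that trims CAAX proteins, had one of 0.23 (SE 0.20). *Fnta*, the alpha subunit shared with the farnesyl transferase, had one of -0.40 (SE 0.33), which was -0.04 without the pseudo-islets of experiment 35. Within the experiments the ratios of *Fnta* were 0.663, 0.931 and 0.701. With the replicate block its SE was 0.15, with an adjusted p = 0.314 by limma with Benjamini-Hochberg adjustment.

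None of the genes listed as effectors and binders of the beta-gamma pair was called. Of 26 effectors and binders 12 were in the table, 3 with a log2 fold change above 0 and 9 below, with a median of -0.33. *Grk3*, the receptor kinase that beta-gamma recruits to the membrane, had -0.34 (SE 0.17). *Adcy9*, listed as a member of the adenylyl cyclase family and not for a known action of beta-gamma on it, had -0.43 (SE 0.25). *Snap25*, the exocytosis protein that beta-gamma binds, had 0.09 (SE 0.16). Of 7 RGS proteins with a gamma-like domain and their partners, 5 were in the table and none was called. *Rgs11*, whose domain takes the place of a gamma subunit on G-beta 5, gave 654, 876 and 537 normalized counts from pseudo-islets against 762, 1393 and 1116 from pseudo-beta. It was lower in pseudo-islets in 3 of 3 experiments, with a log2 fold change of -0.65 (SE 0.25) and an adjusted p = 0.872 by limma with Benjamini-Hochberg adjustment, or 0.123 with the replicate block. The membrane partners *Gpr158* and *Rgs7bp* had log2 fold changes of -0.03 and -0.16.

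Among 22 islet receptors coupled to G-proteins, 14 were in the table, 3 with a log2 fold change above 0 and 11 below (median -0.16). None was called without the replicate block, and 1, *Gcgr*, was called with it. *Gcgr*, the glucagon receptor, gave 874, 889 and 648 normalized counts from pseudo-islets against 1267, 1318 and 1100 from pseudo-beta, with no overlap. Its log2 fold change was -0.62 (SE 0.17), with an adjusted p = 0.649 by limma with Benjamini-Hochberg adjustment, or 0.043 with the replicate block. The call with the block was lost when any 1 experiment was left out (adjusted p = 0.064 to 0.225), and the gene had been singled out in the study from these samples. *Glp1r*, the GLP1 receptor, ran from 13991 to 16063 normalized counts in pseudo-islets and from 15353 to 18456 in pseudo-beta, and its log2 fold change was -0.16 (SE 0.12). *Gipr*, the GIP receptor, had 697, 604 and 493 against 729, 910 and 715, a log2 fold change of -0.40 (SE 0.19). Its groups did not overlap, and its adjusted p was 0.928 by limma with Benjamini-Hochberg adjustment, or 0.311 with the replicate block. Over all these lists together, 65 of 93 genes were in the table, 8 (12.3%) had groups without overlap, close to the 10.8% of all genes, and the median log2 fold change was -0.08.

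Over the 6 libraries, the genes whose log2 values followed *Gng12* most closely were *Rell1* (Pearson's r = 0.991), *Syt5* (0.989), *Gcdh* (0.986), *Lyrm2* (0.985) and *Sst* (0.983), among 10576 genes whose mean was 50 normalized counts or more. These values are descriptions, since the libraries form 2 groups and any gene with a steady gap between them gives a high r. The gaps differed in size. *Syt5*, a synaptotagmin of secretory vesicles, ran from 1479 to 1758 normalized counts in pseudo-islets and from 535 to 735 in pseudo-beta, at a log2 fold change of 1.36 (SE 0.17). *Rell1* had 386 to 399 against 335 to 346, a log2 fold change of 0.20 (SE 0.17).

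The hormone genes of alpha- and delta-cells were also higher in pseudo-islets. *Gcg*, the glucagon gene of alpha-cells, gave 1763, 941 and 2094 normalized counts from pseudo-islets against 36.1, 14.1 and 0 from pseudo-beta. *Sst*, the somatostatin gene of delta-cells, had 190, 146 and 210 against 0, 0 and 4.74. The other markers of these cell types did not all follow. Of 9 alpha-cell markers 7 were in the table (not *Irx1* and *Irx2*), and the 6 besides *Gcg* summed to 8927 to 12405 and 7591 to 9847, with overlap. The largest of these 6, *Ttr*, did not overlap, at 4772, 4757 and 7565 against 3063, 3838 and 4307. Of the 7 alpha-cell markers, 3 had a log2 fold change above 0 and 4 below. Of 8 delta-cell markers 3 were in the table (not *Hhex*, *Ghsr*, *Lepr*, *Ptprz1* and *Bche*), and the 2 besides *Sst* summed to 335 to 588 and 427 to 536. With *Gcg* and *Sst* included, the sums were 9869 to 14499 and 7627 to 9847, and 482 to 778 and 427 to 536. One of the alpha-cell markers, *Cd81*, codes for a surface protein used in the sort. *Ppy*, the hormone of PP-cells, was at 4172, 383 and 1790 against 1650, 219 and 731. Of 4 PP-cell markers 3 were in the table, not *Aqp3*, and all 3 were called higher in pseudo-islets with the replicate block and none without it. Their adjusted p by limma with Benjamini-Hochberg adjustment and the block was 0.0027 for *Ppy*, 0.026 for *Pyy* and 0.032 for *Etv1*, and that of the alpha-cell marker *Ttr* was 0.030. The part of these cells in the *Gng12* values was not tested.

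Of immune markers 3 of 10 were in the table, without *Ptprc*, and summed to 1804 to 2870 and 1237 to 1843. Most of it was *C1qa*, at 1649 to 2661 against 977 to 1412, while its partner *C1qb* was not in the table. The B-cell gene *Cd79a* went the other way, at 148 to 195 against 249 to 609. With the replicate block *C1qa* was called higher and *Cd79a* lower in pseudo-islets (adjusted p = 0.003 and 0.039 by limma with Benjamini-Hochberg adjustment), and neither was called without it. Of endothelial markers 2 of 8 were in the table, summing to 73.7 to 89.3 and 83.3 to 118.5, and no acinar (0 of 12) or stromal (0 of 8) marker was. All 10 beta-cell markers were in the table, and they summed to between 6961554 and 8337444 of the 17994346 to 19635287 normalized counts of a library.

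Some reads of the family can belong to other genes. *Gng12* overlaps *Gm15644*, a processed pseudogene on its strand, and *4930597O21Rik* and *Gm36816* on the opposite strand, none of them in the table. *Gng10* shares 958 bases (99.8% identical) with *Gm20503*, which overlaps it on the same strand and was not in the table. *Gng5* has stretches at least 95% identical in 6 other genes, 5 of them processed pseudogenes. The 1 copy in the table, *Gm4356*, was at 18.4, 15.6 and 17.4 normalized counts in the pseudo-islet libraries and at 2.75, 9.01 and 37.9 in the pseudo-beta libraries. *Gng4* shares stretches of 76 to 118 bases with 47 other genes, and *Gng2* shares 897 bases with *Gm48283* on the opposite strand. Whether reads were counted by strand is not given in the sources used here. Reads from the stretches that *Gng12* and *Gng2* share with genes on the opposite strand therefore cannot be told apart. The values of *Gng5* and *Gng10* are uncertain because of their near copies.

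The start regions of the 2 genes whose groups did not overlap are shown because receptors for glucagon and GLP1 raise cAMP, and cAMP acts on genes through CREB, which binds the letters TGACG or their reverse complement CGTCA. Below are 250 bases up to the annotated start from RefSeq (GRCm38.p6), with any such letters on either strand in capitals, for 1 of the 2 annotated starts of each gene, *Gng12* at chr6:66896147-66896396 (forward strand) and *Gng4* at chr13:13784057-13784306 (forward strand).
Gng12: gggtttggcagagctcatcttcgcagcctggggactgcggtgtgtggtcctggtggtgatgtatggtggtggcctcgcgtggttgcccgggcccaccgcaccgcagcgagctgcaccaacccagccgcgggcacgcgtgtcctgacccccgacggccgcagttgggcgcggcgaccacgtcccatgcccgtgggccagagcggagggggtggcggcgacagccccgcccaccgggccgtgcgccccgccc
Gng4: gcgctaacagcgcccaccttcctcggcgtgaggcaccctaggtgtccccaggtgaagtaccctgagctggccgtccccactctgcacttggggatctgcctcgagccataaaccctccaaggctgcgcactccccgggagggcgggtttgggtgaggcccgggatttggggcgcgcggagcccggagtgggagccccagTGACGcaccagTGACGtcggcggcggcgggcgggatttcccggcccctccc
The *Gng4* sequence holds TGACG 51 and 40 bases before the start, and the *Gng12* sequence holds neither form. The window of the other *Gng4* start, which is the start of the gene given above, holds neither form, nor does that of the other *Gng12* start. The table has 9 start windows of 300 bases for the 6 genes, 2 of them for *Gng12*, and 2 of the 9 hold the letters, the shown one of *Gng4* and one of *Gng7*. Of all 32851 start windows of the mouse table, 20.8% hold them. A match is a description of the letters, not a binding site, and binding was not measured.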

How the data were processed

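RNA of sorted beta-cells was measured in 6 libraries, 3 of pseudo-islets and 3 of pseudo-beta. According to the methods of the study and the submitters' processing notes, the authors made libraries from 5 ng of total RNA, depleted them of ribosomal RNA, aligned paired reads to GRCm38 with STAR (2.7.6a), quantified genes with RSEM (1.3.1) and normalized between libraries with DESeq2 (1.26.0, R 3.6.3). The deposited signal is therefore normalized counts, which are not whole reads, and reads per library are not given in the sources used here. Normalization rests on relative levels, so a change in total RNA per cell would not be seen. Each of the 13535 genes reached 10 normalized counts in 3 or more libraries. The deposited table also holds the authors' mean signal, log2 fold change with its standard error, test statistic (a score) and p-value columns, which were not used.

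Values were compared as log2(value + 1) with limma (3.58.1, R 4.3.3). The fit had a prior variance that follows the mean, no block and Benjamini-Hochberg adjustment over all genes. It was also run on simulated data whose noise was independent between libraries, with no experiment effect. That run does not bear on the calls gained with the block. Intervals are 95% intervals from limma, and with 3 libraries a group no exact permutation test can give a two-sided p under 0.10. Deviations from the group means correlated at 0.119, 0.121 and 0.325 between libraries of one experiment and at -0.203 to 0.092 between experiments. Each value within an experiment passed the set minimum of 0.1. Those of experiments 35 and 36 lay near the 0.092 between pseudo-islets 35 and pseudo-beta 36. The pairing therefore rests mainly on the experiment numbers in the labels. The fit with the replicate block is given where it bears on a call. The median standard error over all genes was 0.27, which is the precision of a log2 fold change.

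Gene positions and lengths are from GENCODE M21, near copies from BLAST 2.17.0 (at least 75 bases and 95% identity), coding alignments from Biopython 1.88 and start regions from RefSeq. Named are all family members, the G-beta genes, *Gcgr*, *Glp1r* and *Gipr*, from each other list the called genes or else at most 3 with the highest mean, the 5 genes most like *Gng12*, and *Gcg*, *Sst* and *Ppy*, while marker genes are named with their lists. The members and lists were chosen with earlier results of these data known, and 1 alpha-cell marker is not reported here. Alternatives were the block, pseudocounts of 0.1 and 10, rescaling without the 10 most abundant genes, a minimum of 10 in every library, one prior variance for all genes, leaving out each library or experiment, and other lengths.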

Additional observations from a re-analysis of the deposited data

How the results depend on the processing

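The log2 fold change of *Gng12* stayed between 0.77 and 0.87 over 17 alternatives, and that of *Gng4* between 0.28 and 0.46. Not all of the 17 could move these estimates. With all 6 libraries kept, the block, the minimum of 10 and one prior variance leave them at 0.83 and 0.38 by design. No test is given for *Gng12*, which was chosen on this contrast, and none of the other 5 members was called under any alternative. The lists of G-protein signalling genes, without the marker lists, gave 1 call with the replicate block. They gave 1 with the block after rescaling without the 10 most abundant genes, and both were *Gcgr*. Over all genes, 8 calls became 73 with the replicate block, 82 with the block after rescaling, 2 after rescaling alone, 1 with a pseudocount of 0.1, 2 with one prior variance for all genes, and 0 with the block and one prior variance, where 1136 genes had an unadjusted p under 0.05 in limma. Leaving out 1 library gave 0 to 13 calls, 0 in 4 of 6 cases (501 to 794 genes at an unadjusted p under 0.05 in limma). The 13 came without the pseudo-beta of experiment 37. Leaving out 1 experiment with the block gave 28, 73 and 45 without experiments 35, 36 and 37. A filter at 10 in every library removes *Gng2*, *Gng7*, *Gnb4*, *Gcg* and *Sst*. The causes were not tested.

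The share of *Gng12* moved with the length used, to 57.8% per kb of exons, 57.9% with the longest, 76.8% with the shortest principal and 34.7% with mixed transcripts in pseudo-islets, and to 46.2%, 46.3%, 66.6% and 24.3% in pseudo-beta. Small fold changes turned sign. Rescaling gave -0.023 for *Gng5* and -0.0093 for *Gnb1*, with or without the block, and a pseudocount of 10 gave -0.10 for *Gng7*. With the block and without experiment 36, *Gng5* was at -0.037, *Gng7* at -1.35, *Gpr158* at 0.053 and *Snap25* at -0.0045. With the block, *Gpr158* was at 0.0038 without experiment 37 and *Pggt1b* at -0.13 without experiment 35. Leaving out 1 library gave -0.079 to 0.11 for *Gng5*, -0.95 to 0.72 for *Gng7*, -0.39 to 0.071 for *Gnas*, -0.056 to 0.29 for *Gnb5*, -0.11 to 0.11 for *Gpr158*, -0.12 to 0.079 for *Cct7*, -0.28 to 0.47 for *Pggt1b* and -0.029 to 0.23 for *Snap25*. Without a change of sign it gave 0.09 to 0.30 for *Gng10*, -0.86 to -0.18 for *Gnb2*, -0.67 to -0.04 for *Fnta* and 0.37 to 2.09 for *Ppy*.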
